A study of Mus musculus with 16 samples.

Results

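The 46 genes described here encode enzymes that build, extend and cap mucin-type O-glycans, together with a chaperone of one of them. They were taken from a list of gene symbols and found by name among the 45513 genes counted in each sample. All 46 were present in the files. They were grouped by the step they carry out: 13 initiate the chain, 6 form its core, 7 extend it and 20 cap it or add sulfate. The RNA came from the colon of 8 Atoh1(WT)CreERT2 R26RtdTom mice, which carry an inducible CreERT2 placed downstream of the Atoh1 coding sequence and a tdTomato reporter (tdTom) that Cre switches on permanently. By the labels every mouse received 1 mg tamoxifen per day on 3 days. The paper gives this dose for the mice that defined its Atoh1 secretory signature, from tdTom+ and tdTom− cells. A passage of the methods on RNA sequencing, which describes the collection of tdTom+ cells, names a single larger dose and a time of collection after it. For the dose on 3 days no time of collection is given. From crypt-enriched fractions of each colon, live EpCAM+ epithelium was separated by flow cytometry into tdTom+ cells and tdTom− cells. Both groups thus share genotype and treatment, and each holds 8 samples, 1 from each mouse. The label follows Atoh1 activity. Cells that express Atoh1 while tamoxifen acts gain it, and they and their later progeny keep it. The tdTom− cells comprise the remaining sorted epithelium, including any secretory cell in which Cre did not act. In the paper, mature enteroendocrine cells, which no longer express Atoh1, were unlabelled soon after tamoxifen, and labelled ones appeared some days later. Animals of both sexes on a C57BL/6 background, aged 8 to 16 weeks, were used in the study, and the age and sex of each mouse are not given in the sources used here.

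Mucins such as Muc2, the gel-forming mucin of goblet cells, carry dense O-linked sugar chains that are added in the Golgi. Polypeptide GalNAc-transferases (Galnt genes) attach the first sugar, N-acetylgalactosamine, to serine or threonine. C1galt1 then builds core 1 with galactose, or B3gnt6 builds core 3 with N-acetylglucosamine, and Gcnt enzymes add branches. The chains are lengthened by B3gnt and B4galt enzymes and end in fucose, sialic acid, sulfate or other caps. Mice that lack core 1 or core 3 synthesis are known to have a defective colonic mucus barrier. Several of the enzymes listed also act on N-glycans or glycolipids.

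Total counts ranged from 16482530 to 24218367 in tdTom+ samples and from 18318172 to 45791503 in tdTom− samples, the largest being the tdTom− sample of mouse 4. A floor of 3 counts corresponded to 0.0655 to 0.182 CPM, the count scaled to a common library size, which covers counting error only. For Atoh1 itself the log2 fold change came to 4.54, with a standard error (SE) of 0.15 and an adjusted p of 1.14e-15 (edgeR). The goblet cell list (Muc2, Tff3, Spdef, Fcgbp, Clca1, Zg16, Agr2) was higher in tdTom+ cells for 7 of 7 genes, with summed levels of 48997 to 102805 CPM against 2221 to 8646 CPM. Both deep crypt secretory cell genes, Reg4 (4.14) and Kit (3.33), were higher too, with sums of 1737 to 4346 CPM against 93.6 to 262 CPM. All 7 genes of absorptive colonocytes and all 6 of enteroendocrine cells were lower, as were 2 of 5 tuft cell genes and 2 of 5 proliferation genes (3 and 4 with the mouse as a block). Summed immune markers stood at 2.02 to 5.17 CPM in tdTom+ and 4.45 to 26.4 CPM in tdTom− cells, and summed stromal markers at 4.96 to 11.5 CPM and 7.67 to 20.6 CPM. Of these lists, 2 of 5 immune and 2 of 6 stromal genes passed the filter on low counts, and none was at 0 in all samples. The part of these markers in the results was not tested. The share of mitochondrial counts was 2.23% to 6.92% in tdTom+ and 3.74% to 9.97% in tdTom− cells, and was lower in the tdTom+ sample in 8 of 8 mice. Its part in the results was not tested either. In sorted populations, fewer cells of a type and less RNA per cell cannot be told apart.

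Most of the enzymes were higher in tdTom+ cells. Of the 46 genes, 40 passed the filter on low counts, and of these 30 were higher, 6 were lower and 4 did not pass an adjusted p of 0.01 (edgeR quasi-likelihood test, Benjamini-Hochberg over 15841 genes). Over all genes tested, 25.5% were higher and 25.5% lower, together 51.0%. The median log2 fold change was 1.46 over the 40 enzymes and 0.0039 over all genes. A log2 fold change of at least 1 was reached upward by 24 enzymes, against 7.59% of all genes, and downward by 5, against 9.16%. The tdTom+ and tdTom− samples did not overlap for 29 enzymes that were higher and 5 that were lower, against 15.2% and 15.3% of all genes, together 30.5%. Of the 40, 35 moved the same way in all 8 mice, against 8151 of the 15841 genes tested. With the mouse as a block, 30 were higher and 8 lower, against 28.4% and 28.9% of all genes. Tested without the filter, 30 of the 46 were higher and 8 lower, against 4245 and 4309 of the 27559 genes with a count. With mice 1 to 3 alone 29 were higher and 7 lower, against 2546 and 2559 of all genes. With mice 5 to 8 alone the counts were 30 and 7, against 3416 and 3557. Mouse 4 stands alone in its series of animal numbers and gives no value of its own.

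**Figure D1:**
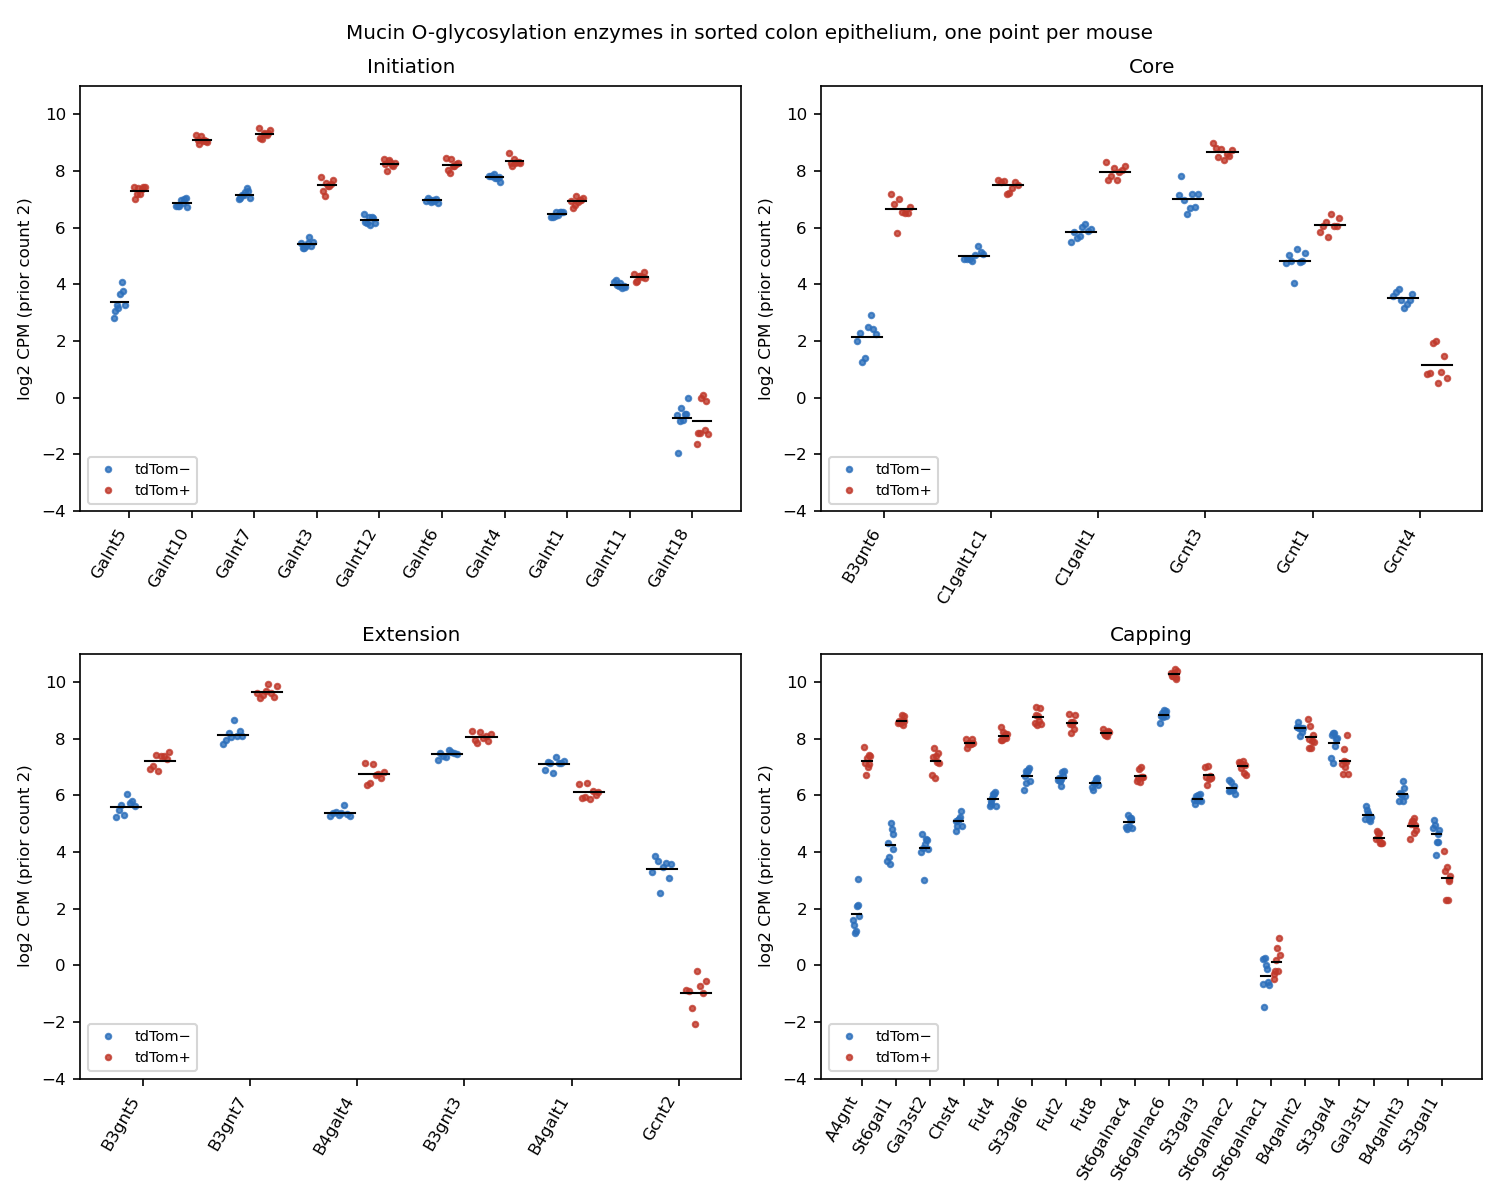
Level of the 40 tested enzymes in log2 CPM (prior count 2) by step, with 1 point for each of the 8 tdTom− (blue) and 8 tdTom+ (red) samples and a black line at the group mean. Genes stand in order of their fold change, and the points of the groups do not overlap for 29 enzymes that were higher and 5 that were lower.

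The windows upstream of the start sites of 4 enzymes are shown because these genes rose together in cells sorted by an Atoh1-driven label. They had the largest increases among enzymes with 1 promoter in the table and at least 150 upstream bases outside the counted exons. ATOH1 is a basic helix-loop-helix factor that binds E-boxes. The sequences are from RefSeq (GRCm38.p6), written 5′ to 3′ along the strand of the gene and ending just before its first base, or, for Gal3st2, before the first exon of the counted annotation. Capitals mark the E-boxes CAGCTG, or CAGATG read on either strand (CATCTG on the other).

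A4gnt (chr9:99612252-99612501, plus strand): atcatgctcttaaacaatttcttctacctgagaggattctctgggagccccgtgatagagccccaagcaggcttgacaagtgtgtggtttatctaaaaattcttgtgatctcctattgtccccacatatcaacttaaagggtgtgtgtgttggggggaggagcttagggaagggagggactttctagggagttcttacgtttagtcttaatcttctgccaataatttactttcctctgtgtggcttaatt

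Gal3st2 (chr1:93861094-93861305, plus strand): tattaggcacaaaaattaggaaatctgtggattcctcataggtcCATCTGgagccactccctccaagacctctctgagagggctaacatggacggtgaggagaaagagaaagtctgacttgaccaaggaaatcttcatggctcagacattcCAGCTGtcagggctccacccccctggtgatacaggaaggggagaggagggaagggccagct

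Chst4 (chr8:110039335-110039584, minus strand): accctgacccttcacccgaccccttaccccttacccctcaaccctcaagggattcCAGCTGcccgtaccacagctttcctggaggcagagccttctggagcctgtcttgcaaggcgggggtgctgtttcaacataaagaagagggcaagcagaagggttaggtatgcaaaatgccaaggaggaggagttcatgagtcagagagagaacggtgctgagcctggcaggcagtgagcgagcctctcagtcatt

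Fut4 (chr9:14752123-14752372, minus strand): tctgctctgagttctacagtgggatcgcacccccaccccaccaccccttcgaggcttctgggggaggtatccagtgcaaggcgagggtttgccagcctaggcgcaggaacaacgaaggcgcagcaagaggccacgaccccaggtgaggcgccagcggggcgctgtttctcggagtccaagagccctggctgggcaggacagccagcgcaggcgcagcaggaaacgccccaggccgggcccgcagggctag

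A4gnt, the enzyme with the largest fold change, and Fut4 held neither E-box in the bases shown, Gal3st2 held 1 of each kind and Chst4 held 1 CAGCTG. Of the enzymes that were higher, 22 had a promoter in the RefSeq table and 6 of these (27.3%) held either motif in any of their promoters, searched over the full 250 bases upstream, of which 212 are shown for Gal3st2. Of those that were lower 2 of 5 did. Counted the same way, 28.2% of the 27025 genes in the table held either motif. Among its 32851 promoters the share was 25.5%, with 13.0% for CAGCTG and 14.4% for the other. The share among raised enzymes was thus close to that of genes in general.

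Among the initiating enzymes, 9 of the 10 tested were higher in tdTom+ cells and none was lower, with a median log2 fold change of 1.62. Galnt5 (chromosome 2, 57997884 to 58045860, GRCm38) changed most. Its level ran from 129.7 to 174 CPM in tdTom+ cells (median 166) and 6.99 to 17.0 CPM in tdTom− cells (median 9.47), with a log2 fold change of 3.90 (SE 0.15, adjusted p = 6.38e-15, edgeR). It was scarce in tdTom− cells, and no sample of the groups overlapped. Galnt10 (chromosome 11, 57645442 to 57787514) and Galnt7 (chromosome 8, 57523828 to 57653032) prefer peptides that already carry a sugar. Galnt10 stood at 495 to 623 CPM in tdTom+ cells (median 538) and 107 to 133 CPM in tdTom− cells (median 114), with a log2 fold change of 2.23 (SE 0.07, adjusted p = 5.87e-16, edgeR). Galnt7, at 563 to 734 CPM in tdTom+ cells (median 637) and 130.3 to 167 CPM in tdTom− cells (median 141), had a log2 fold change of 2.15 (SE 0.07, adjusted p = 1.91e-15, edgeR). Both were narrow in spread and several-fold higher in every mouse.

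Galnt3, Galnt12 and Galnt6 act on mucin peptides as well. Galnt3 was measured at 139.8 to 222 CPM in tdTom+ cells (median 182) and 38.4 to 50.3 CPM in tdTom− cells (median 42.2), with a log2 fold change of 2.09 (SE 0.08, adjusted p = 1.53e-14, edgeR). For Galnt12 the values were 255.9 to 347 CPM in tdTom+ cells (median 307) and 68.1 to 88.9 CPM in tdTom− cells (median 78.1), with a log2 fold change of 1.97 (SE 0.07, adjusted p = 4.01e-15, edgeR). Galnt6 rose less. It was found at 241 to 354 CPM in tdTom+ cells (median 295) and 118 to 131 CPM in tdTom− cells (median 125), with a log2 fold change of 1.26 (SE 0.07, adjusted p = 3.06e-12, edgeR). Galnt1 and Galnt4, which also start chains on mucin peptides or extend them to neighbouring sites, were higher by smaller amounts, with log2 fold changes of 0.45 and 0.56 in 8 of 8 mice each. Galnt11 was at 0.28 (adjusted p = 8.59e-04, edgeR), in 7 of 8 mice, and its groups overlapped. With mice 1 to 3 alone it was at 0.13 and did not pass (adjusted p = 0.453, edgeR), and with library size alone as the scaling it was at 0.23 (adjusted p = 0.0110, edgeR). Galnt18 was barely expressed, with 191 counts in all, and had a log2 fold change of −0.08 (adjusted p = 0.845, edgeR).

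Galnt14 with 34 counts, Galnt15 with 4 and Galnt2 with 35 did not pass the filter. The Galnt2 count is not a measure of its expression, since 90.0% of its exon bases are shared on the same strand with the overlapping gene model Gm20388, and the authors' counting leaves out reads that fall in both. Gm20388 had 0 counts in every sample.

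Compared per kilobase of exon, the make-up of this step differed between the populations. The summed level of the 12 initiating enzymes other than Galnt2 was 591 ± 52.0 CPM per kb in tdTom+ and 188 ± 8.15 in tdTom− cells (SD, n = 8), and within a mouse the sum was 2.78 to 3.61 times as high in tdTom+ cells. Galnt4 took the largest share in tdTom− cells, with 23.1% ± 1.18, and 10.8% ± 0.402 in tdTom+ cells. In tdTom+ cells the largest share belonged to Galnt12, with 22.7% ± 0.98 against 18.2% ± 1.31, followed by Galnt7, with 20.6% ± 0.718 against 14.6% ± 0.98. Galnt5 moved from 1.27% ± 0.354 of the sum in tdTom− to 6.04% ± 0.484 in tdTom+ cells. The shares of Galnt3, Galnt5, Galnt7, Galnt10 and Galnt12 were larger, and those of Galnt1, Galnt4, Galnt6 and Galnt11 smaller, in the tdTom+ sample of 8 of 8 mice. A smaller share here does not mean a lower level, since Galnt1, Galnt4 and Galnt6 rose too. These shares are a description among the 12 enzymes and were not tested. The order in tdTom+ cells depends on the division by exon length. In mean CPM, Galnt7 (639) and Galnt10 (549) stood above Galnt4 (325) and Galnt12 (307) there. In tdTom− cells Galnt4 led in mean CPM too (221). Galnt2 could not be measured, so the order with it included is not known.

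**Figure D2:**
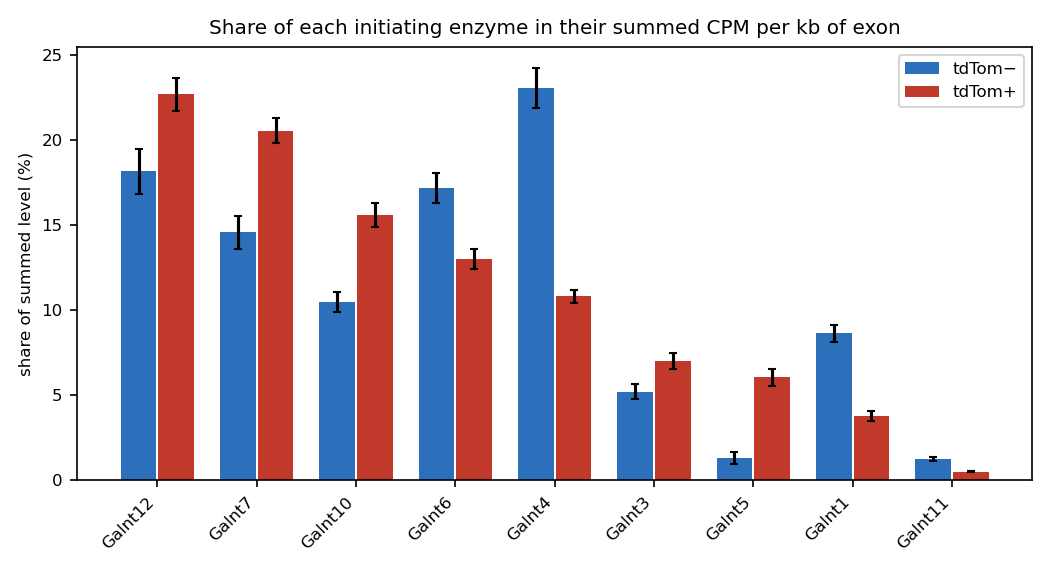
Share of each initiating enzyme in their summed CPM per kb of exon, as a percentage (bars, mean; error bars, SD over 8 mice) in tdTom− (blue) and tdTom+ (red) cells, for the 9 enzymes above 0.05% in tdTom+ cells. Galnt2, whose level could not be measured, is left out of the sum. Among the enzymes in the sum, Galnt4 leads in tdTom− cells with 23.1% and Galnt12 in tdTom+ cells with 22.7%.

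All 6 core enzymes were tested, and 5 were higher and 1 lower. B3gnt6 (chromosome 7, 98192420 to 98199481), the core 3 synthase, stood out. Its level ran from 56.5 to 145 CPM in tdTom+ cells (median 99.7) and 2.33 to 7.54 CPM in tdTom− cells (median 4.70), with a log2 fold change of 4.53 (SE 0.22, adjusted p = 2.67e-13, edgeR). The difference within a mouse spanned 3.598 to 5.62 on the log2 scale. C1galt1 (chromosome 6, 7844842 to 7872047), the core 1 synthase, was measured at 203 to 322 CPM in tdTom+ cells (median 256.1) and 45.1 to 70.0 CPM in tdTom− cells (median 58.6), with a log2 fold change of 2.14 (SE 0.10, adjusted p = 3.37e-13, edgeR). C1galt1c1 on chromosome X (38630785 to 38635087) encodes Cosmc, the chaperone without which C1galt1 does not fold. It was at 144 to 207 CPM in tdTom+ cells (median 189.9) and 28.1 to 40.3 CPM in tdTom− cells (median 31.1), with a log2 fold change of 2.49 (SE 0.09, adjusted p = 4.74e-15, edgeR). The fold changes of the enzyme and its chaperone were not tested against each other.

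Both core synthases use the same acceptor, and the ratio of their levels was compared within samples. B3gnt6 per kilobase amounted to 0.0481 to 0.112 times C1galt1 in tdTom− samples (median 0.0862) and 0.258 to 0.584 times in tdTom+ samples (median 0.424). The groups did not overlap, and C1galt1 remained the higher of the pair in all 16 samples. On the log2 scale the ratio was −1.27 ± 0.36 in tdTom+ and −3.69 ± 0.43 in tdTom− cells (SD, n = 8). The difference was 2.41 ± 0.46 (SD over 8 mice) and positive in 8 of 8 mice, with an exact two-sided permutation p of 0.0078, the smallest that exchanging labels within 8 mice can give.

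Of the branching enzymes, Gcnt3, which makes core 2 and core 4 in mucin-secreting cells, and Gcnt1, which makes core 2, were higher, while Gcnt4, another core 2 enzyme, was lower. Gcnt3 ran from 332 to 508 CPM in tdTom+ cells (median 412) and 88.7 to 229 CPM in tdTom− cells (median 135), with a log2 fold change of 1.60 (SE 0.15, adjusted p = 1.09e-08, edgeR). Gcnt1 was found at 50.3 to 88.3 CPM in tdTom+ cells (median 67.0) and 16.6 to 38.1 CPM in tdTom− cells (median 28.3), with a log2 fold change of 1.24 (SE 0.14, adjusted p = 8.53e-08, edgeR). Neither overlapped between the groups, and the tdTom− sample of mouse 4 was the lowest for Gcnt1. Gcnt4 had far lower levels, at 1.33 to 3.86 CPM in tdTom+ cells (median 1.76) and 8.84 to 14.02 CPM in tdTom− cells (median 11.5), with a log2 fold change of −2.33 (SE 0.19, adjusted p = 1.39e-09, edgeR). Per kilobase Gcnt4 stood at 0.451 ± 0.199 CPM per kb in tdTom+ cells, where Gcnt3 stood at 95.3 ± 13.4 (SD, n = 8).

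**Figure D3:**
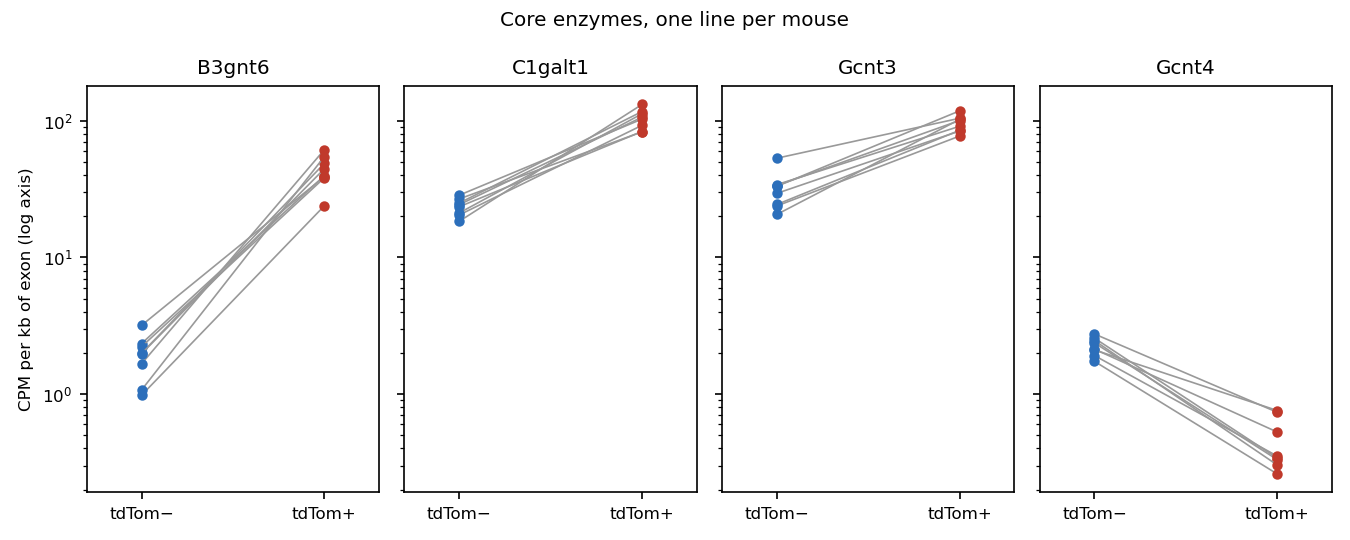
Level of 4 core enzymes in CPM per kb of exon on a log axis, with 1 line joining the tdTom− (blue) and tdTom+ (red) samples of each of the 8 mice. All lines rise for B3gnt6, C1galt1 and Gcnt3 and fall for Gcnt4, and those of B3gnt6 are steeper than those of C1galt1.

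Among extension enzymes, 4 of the 6 tested were higher and 2 lower, with a range of log2 fold changes from −4.53 to 1.62. Gcnt2 (chromosome 13, 40859768 to 40960891), which forms the I branch on lactosamine chains, had the largest decrease of all members. It was at 0.143 to 0.765 CPM in tdTom+ cells (median 0.442) and 5.75 to 14.2 CPM in tdTom− cells (median 11.3), with a log2 fold change of −4.53 (SE 0.23, adjusted p = 7.04e-13, edgeR). No tdTom+ sample came near a tdTom− sample. The tdTom+ level of Gcnt2 rests on 70 counts over 8 samples. Its lowest value lies within the range of the floor of 3 counts, so the size of the decrease is less certain than its direction. B4galt1, a galactosyltransferase that also serves N-glycans, ranged over 58.4 to 85.9 CPM in tdTom+ cells (median 66.8) and 111 to 164 CPM in tdTom− cells (median 142), with a log2 fold change of −1.003 (SE 0.09, adjusted p = 6.86e-09, edgeR). Its relative B4galt4, which favours sulfated N-acetylglucosamine, moved the other way. B4galt4 stood at 82.1 to 139.8 CPM in tdTom+ cells (median 106) and 38.6 to 49.9 CPM in tdTom− cells (median 40.8), with a log2 fold change of 1.38 (SE 0.10, adjusted p = 1.37e-10, edgeR). Per kilobase, B4galt4 was at 35.6 ± 6.93 CPM per kb and B4galt1 at 16.3 ± 2.58 in tdTom+ cells, against 13.7 ± 1.21 and 32.7 ± 3.92 in tdTom− cells (SD, n = 8), so that their order was reversed.

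The 3 B3gnt genes of this step that could be tested were higher. B3gnt7, which lengthens lactosamine chains, was at 685 to 969 CPM in tdTom+ cells (median 773) and 224 to 398 CPM in tdTom− cells (median 272), with a log2 fold change of 1.49 (SE 0.10, adjusted p = 1.01e-10, edgeR). B3gnt5, best known for starting lacto-series glycolipids, was measured at 115 to 183 CPM in tdTom+ cells (median 160.4) and 37.1 to 65.1 CPM in tdTom− cells (median 49.4), with a log2 fold change of 1.62 (SE 0.12, adjusted p = 1.42e-10, edgeR). B3gnt3, which extends core 1, had a log2 fold change of 0.62 and was higher in 8 of 8 mice. B3gnt7 and B3gnt3 had the highest levels of this step per kilobase in both populations, with 193 ± 24.7 and 127 ± 13.6 CPM per kb in tdTom+ and 68.9 ± 12.7 and 82.8 ± 6.22 in tdTom− cells (SD, n = 8). For B3gnt2 only 121 counts were recorded and it was not tested, but 74.7% of its exon bases are shared on the same strand with Gm28048 and another gene model, so its low count does not measure its expression.

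The capping step, which has the most enzymes, held the largest increase of the whole list and most of the enzymes that fell or did not pass. Of 18 tested, 12 were higher (66.7%, the same share as in the extension step), 3 lower and 3 did not pass. A4gnt (chromosome 9, 99612502 to 99622367), which caps chains with alpha-1,4-linked N-acetylglucosamine and is typical of gastric gland mucin, ran from 104 to 210.1 CPM in tdTom+ cells (median 149) and 2.12 to 8.21 CPM in tdTom− cells (median 3.10), with a log2 fold change of 5.38 (SE 0.23, adjusted p = 4.10e-14, edgeR). Its difference within a mouse was 4.06 to 6.11 on the log2 scale. St6gal1 (chromosome 16, 23224740 to 23360350), which adds alpha-2,6-linked sialic acid to galactose mainly on N-glycans, was at 356 to 457 CPM in tdTom+ cells (median 387) and 11.9 to 32.6 CPM in tdTom− cells (median 18.4), with a log2 fold change of 4.31 (SE 0.19, adjusted p = 5.35e-14, edgeR). In both genes the lowest tdTom+ sample was more than 10 times as high as the highest tdTom− sample.

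Enzymes of sulfation were split. Chst4 (chromosome 8, 110029075 to 110039334), which sulfates N-acetylglucosamine, stood at 201 to 254 CPM in tdTom+ cells (median 226) and 26.7 to 43.6 CPM in tdTom− cells (median 34.4), with a log2 fold change of 2.75 (SE 0.09, adjusted p = 6.10e-16, edgeR). Gal3st2 (chromosome 1, 93861306 to 93876494), which sulfates galactose, was found at 97.8 to 202 CPM in tdTom+ cells (median 154) and 7.92 to 24.8 CPM in tdTom− cells (median 18.4), with a log2 fold change of 3.06 (SE 0.19, adjusted p = 1.51e-11, edgeR). The tdTom− sample of mouse 4 was the lowest of its group for Gal3st2. Gal3st1, which makes the glycolipid sulfatide, fell by 0.82 on the log2 scale in tdTom+ cells, with 8 of 8 mice in that direction, and its groups did not overlap.

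All 3 fucosyltransferases were higher. Fut2, which adds the alpha-1,2-linked fucose of the H antigen, ran from 296 to 463 CPM in tdTom+ cells (median 374) and 80.3 to 116 CPM in tdTom− cells (median 96.8), with a log2 fold change of 1.94 (SE 0.10, adjusted p = 3.78e-13, edgeR). It neighbours the close paralogs Fut1 and Sec1, whose reads could be divided with it in the authors' counting. Fut4, an alpha-1,3-fucosyltransferase of Lewis-type antigens, was at 244 to 338 CPM in tdTom+ cells (median 272) and 48.6 to 68.8 CPM in tdTom− cells (median 58.1), with a log2 fold change of 2.25 (SE 0.09, adjusted p = 1.28e-14, edgeR). Fut8, which fucosylates the core of N-glycans, stood at 272 to 321 CPM in tdTom+ cells (median 292) and 72.8 to 97.2 CPM in tdTom− cells (median 86.3), with a log2 fold change of 1.76 (SE 0.06, adjusted p = 3.63e-15, edgeR). The groups of each were well apart.

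The sialyltransferases went both ways. St3gal6, which sialylates lactosamine ends, ranged over 354 to 559 CPM in tdTom+ cells (median 417) and 72.0 to 125 CPM in tdTom− cells (median 108), with a log2 fold change of 2.08 (SE 0.12, adjusted p = 6.47e-12, edgeR). St6galnac4 and St6galnac6 add sialic acid to N-acetylgalactosamine of chains that are already sialylated. St6galnac4 was at 87.3 to 127 CPM in tdTom+ cells (median 99.2) and 28.1 to 38.9 CPM in tdTom− cells (median 32.6), with a log2 fold change of 1.64 (SE 0.09, adjusted p = 1.99e-12, edgeR). St6galnac6 was the most abundant capping enzyme per kilobase in tdTom+ cells, at 257 ± 21.1 CPM per kb (SD, n = 8). Its level ran from 1106 to 1405 CPM in tdTom+ cells (median 1226) and 375 to 519.7 CPM in tdTom− cells (median 459.8), with a log2 fold change of 1.43 (SE 0.07, adjusted p = 9.75e-13, edgeR). Smaller increases were seen for St3gal3 (0.85) and St6galnac2 (0.77), each in 8 of 8 mice.

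St3gal1, which sialylates core 1, was lower. It was measured at 4.78 to 16.4 CPM in tdTom+ cells (median 8.53) and 14.8 to 34.7 CPM in tdTom− cells (median 25.8), with a log2 fold change of −1.48 (SE 0.21, adjusted p = 4.19e-06, edgeR), and although every mouse showed the decrease, the groups overlapped. St3gal4 had a log2 fold change of −0.59 (adjusted p = 0.0109, edgeR), lower in 6 of 8 mice. With the mouse as a block it passed the threshold, at −0.62 (adjusted p = 0.00141, edgeR). St6galnac1, the synthase of sialyl-Tn, had 310 counts in all and a value of 0.49 (adjusted p = 0.121, edgeR), higher in 5 of 8 mice. St3gal2 with 123 counts and St6galnac3 with 4 did not pass the filter. St3gal2, which shares its acceptor with St3gal1, had 18 counts in tdTom+ and 105 in tdTom− samples, and without the filter it reached −2.29 on the log2 scale (SE 0.44, adjusted p = 1.50e-04, edgeR).

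**Figure D4:**
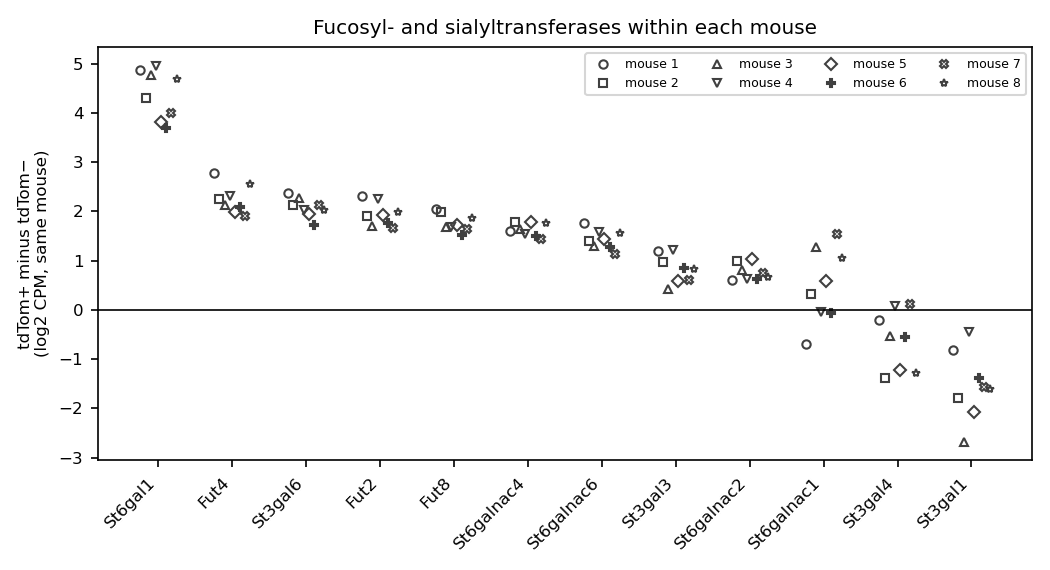
Difference between the tdTom+ and the tdTom− sample of the same mouse, in log2 CPM, for fucosyl- and sialyltransferases, with 1 symbol for each of the 8 mice. St6gal1 lies between 3.68 and 4.95 in all mice, while St3gal4 lies on both sides of 0 and St3gal1 below 0 in every mouse.

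B4galnt2 and B4galnt3 end chains with N-acetylgalactosamine, the former in the Sda antigen of the colon. B4galnt3 was lower, at 21.8 to 36.8 CPM in tdTom+ cells (median 31.2) and 55.3 to 89.8 CPM in tdTom− cells (median 65.0), with a log2 fold change of −1.15 (SE 0.11, adjusted p = 1.05e-08, edgeR). B4galnt2 had a log2 fold change of −0.28 (adjusted p = 0.0627, edgeR), lower in 6 of 8 mice. With the mouse as a block it passed, at −0.31 (adjusted p = 0.00713, edgeR). Per kilobase B4galnt2 was the most abundant capping enzyme of tdTom− cells, at 191 ± 18.7 CPM per kb, and stood at 158 ± 42.4 in tdTom+ cells (SD, n = 8).

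**Figure D5:**
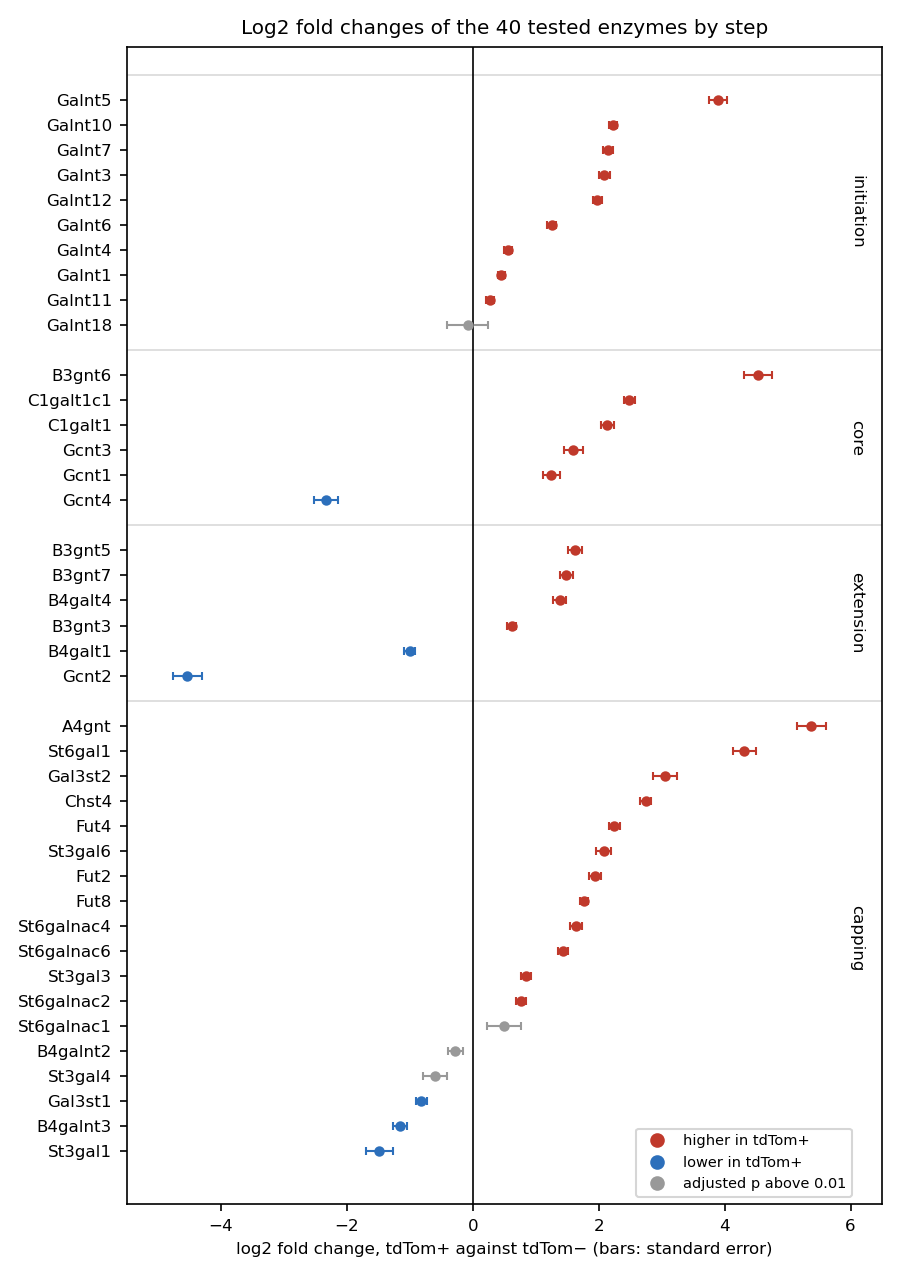
Log2 fold change of the 40 tested enzymes, tdTom+ against tdTom− cells, from edgeR without the mouse in the model (points; bars, standard error), ordered by step. Red points were higher and blue points lower at an adjusted p of 0.01, and the values run from −4.53 for Gcnt2 to 5.38 for A4gnt.

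The strongly raised enzymes were not absent from tdTom− cells. The tdTom− level of A4gnt was 1.40% to 5.94% of the tdTom+ level of the same mouse (median 1.998%). The figure for B3gnt6 was 1.96% to 8.17% (median 4.28%), for St6gal1 3.20% to 7.76% (median 4.44%) and for Galnt5 4.05% to 10.4% (median 6.40%). Muc2 itself had 1.84% to 7.44% (median 3.61%), and Spdef, a goblet cell transcription factor, 3.12% to 8.68% (median 4.46%). The highest tdTom− sample was that of mouse 6 for A4gnt, B3gnt6, Galnt5, Spdef, Agr2 and Zg16, of mouse 7 for Muc2 and Chst4, of mouse 2 for Tff3 and Gal3st2, and of mouse 5 for St6gal1. Gal3st2 (median 11.9%) and Chst4 (median 14.3%) kept larger shares. The part of unlabelled goblet cells in these levels was not tested.

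A further 35 genes of O-glycan and terminal glycosylation were counted beside these. Of them 18 were tested, with 9 higher, 4 lower and 5 that did not pass, and a median log2 fold change of 0.41. Over all genes 25.5% were higher and 25.5% lower, against 50% and 22.2% of these 18. Chst5, a sulfotransferase for N-acetylglucosamine, had a log2 fold change of 4.04 (SE 0.48, adjusted p = 3.39e-07, edgeR) on 361 counts in all. B3gnt9 had a log2 fold change of 3.53 (SE 0.15, adjusted p = 3.63e-14, edgeR). For B3galt2, a galactosyltransferase, the fit gave a log2 fold change of 3.53 (SE 0.29, adjusted p = 1.50e-09, edgeR). The 3 largest decreases were those of Galnt17 (−2.67), B4galnt4 (−1.06) and B4galt6 (−0.98). Of the 17 genes not tested, none had more than 150 counts in all.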

How the data were processed

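Single-end reads of stranded mRNA libraries (TruSeq) were aligned to GRCm38 with TopHat2 (2.1.1 in the submitters' processing notes), and primary alignments on exons of the reverse strand were counted per gene with featureCounts 1.5.0-p1 per the file headers, which name no option for counting reads that overlap more than 1 gene. The authors deposited these counts without normalization. Symbols came from GENCODE M21 by Ensembl identifier (44585 of 45513 genes). Groups and mouse numbers came from the labels, and 8 mice gave both samples.

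Differences between the groups were tested on the deposited counts in edgeR (4.0.16, under R 4.3.3) with glmQLFit and glmQLFTest after filterByExpr and TMM scaling, without a mouse term and at an adjusted p of 0.01. Levels are CPM with TMM library sizes, log2 CPM used a prior count of 2, and levels between genes were compared per kilobase of exon. The 2 samples of a mouse, which are from the same animal, deviated together from their group means (correlation 0.22 to 0.41 across genes), and no pair of samples within a group agreed within sampling noise. Alternatives comprised a block for mouse, RLE, upper-quartile and library-size normalization, DESeq2 1.42.0, limma-voom (limma 3.58.1), other filters, an adjusted p of 0.05, and fits on fewer mice. The fits were tested on simulated data with known changes. Every enzyme is accounted for: those past the threshold with a log2 fold change of at least 1 in size are given with their range, and the 3 largest changes each way among the other genes are named. The enzymes, lists and tests were chosen with earlier results of these data known. Promoter windows were searched with Python 3.11.15.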

Additional observations from a re-analysis of the deposited data

Results flagged for a closer look

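In 4 of 80 groups of 8 samples (each tested enzyme in each population, log2 CPM) 1 sample lay far from the others, where 4 are expected by chance. Mouse 4 had a tdTom− value of 4.06 for Gcnt1, where the remaining tdTom− samples spanned 4.77 to 5.26. Gal3st2 was at 3.00 in the same sample, against 4.01 to 4.64. B4galt4 reached 5.64 in mouse 6, the others lying between 5.27 and 5.40. Galnt18, with few counts, was at −1.97 in mouse 2, the others lying between −0.81 and −0.01. All 4 samples were tdTom−. Without mouse 4, 30 enzymes were higher and 7 lower in tdTom+ cells, against 4177 and 3812 of all genes.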

How the results depend on the processing

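For the 40 tested enzymes, 754 log2 fold changes were obtained under other settings, and 740 of them had the same sign and the same call. Between 29 and 30 enzymes were higher and between 5 and 8 lower, against 2546 to 4918 and 2559 to 4843 of all genes. Leaving out 1 mouse at a time gave 30 higher and 6 to 7 lower, against 3670 to 4177 and 3700 to 3914 of all genes. The paired fit (replicate block) called 30 and 8, adding B4galnt2 and St3gal4. The direction of Galnt18, which never passed, was reversed without mouse 1 (0.03) and without mouse 8 (0.15), over a range of −0.28 to 0.15 with 1 mouse left out. It fell below the filter without mouse 4 or mouse 7, and enzymes with under 10 counts in any sample gave no value at that minimum. Galnt11 lost its call with mice 1 to 3 only and with library size alone; the cause was not tested.

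Over all genes, 2546 were higher and 2559 lower with mice 1 to 3 only, a fit on 3 of 8 mice, against 4032 and 4042; with each mouse left out they ranged from 3670 to 4177 and from 3700 to 3914. The log2 difference in the B3gnt6 to C1galt1 ratio was 2.52 with mice 1 to 3 only (exact p = 0.25) and 2.12 with mice 5 to 8 only (exact p = 0.125), each the smallest p that so few mice allow. It was 2.29 to 2.504 with each mouse left out, and 2.41 without pairing (no replicate block, exact permutation p = 1.55e-04). That p is likewise the smallest that exchanging labels over all samples can give, and it ignores the pairing. The depth limits Galnt18, St6galnac1, the tdTom+ level of Gcnt2 and the genes below the filter.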
